A study of Mus musculus with 6 samples.

Results

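The genes followed here encode the GABA-B receptor and the proteins that sit closest to it: the receptor subunits Gabbr1 and Gabbr2, the auxiliary subunits Kctd8, Kctd12 and Kctd16, and the potassium channel subunits Kcnj3, Kcnj6 and Kcnj9. They were chosen by gene symbol and are 8 of the 34797 gene names in the array files. On the array used, 14 of 55681 non-control probes carried one of these 8 symbols, on 23 spots, and 13 of the 14 were detected, that is clearly brighter than background in 3 or more of the 6 samples, as were 29318 probes in all. RNA from mouse brain synaptosomes, a preparation of nerve endings sheared off during homogenisation together with pieces of the membrane they contact, was measured on one-colour Agilent arrays in 3 knock-in and 3 wild-type samples. The first group is named knock-in in its sample names and in the series design but knock-out in its genotype field, and the altered allele, strain, age, sex and brain region are not stated in the labels. Separate animals are not stated either, so each p-value rests on a spread between samples that may be technical.

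GABA-B receptors are the G protein-coupled receptors for GABA, the main inhibitory transmitter of the brain. GABBR1 binds GABA, GABBR2 couples to the inhibitory G proteins, and a working receptor needs both. The KCTD proteins bind the tail of GABBR2 and shape how fast the response starts and fades. At nerve terminals the receptor reduces calcium entry and transmitter release, and on dendrites the G protein beta-gamma subunits open GIRK channels, built from the products of Kcnj3 (GIRK1), Kcnj6 (GIRK2) and Kcnj9 (GIRK3), which let potassium out and quiet the neuron. In bulk RNA of this kind, fewer cells or terminals of a type and less RNA in each cannot be told apart.

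All 3 knock-in arrays and wild-type replicate 3 were on one slide, and wild-type replicates 1 and 2 were on another. The 75th percentile of the processed signal was 883 to 910 on the knock-in arrays, against 823 on the wild-type array of the same slide and 578 and 580 on those of the other slide. Signals below are therefore also given as log2 values relative to the 75th percentile of their own array, called scaled values. The RNA input is listed as 0.2 µg for 5 samples and as 0.0 µg for knock-in replicate 1. Correlations between arrays over detected probes were 0.979 to 0.993, and 0 spots were saturated. The 8 neuronal and synaptic markers examined, such as Snap25, Syt1 and Syn1, were well above background on all 6 arrays, but so were 6 of 6 markers each of astrocytes, oligodendrocytes and microglia. Fmr1, the gene of the series' title, had scaled values of 2.08, 2.24 and 2.27 in knock-in, against 1.42, 1.33 and 1.37 in wild-type (difference 0.82, SE 0.10, limma adjusted p = 0.326). The labels do not say which gene or which part of it was altered, so these values do not check them.

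Each probe is a 60-base oligonucleotide and reads one stretch of a transcript, so a gene with several probes is measured at several places. Gabbr1 and Gabbr2 each had 3 probes, Kctd8 and Kcnj3 had 2, and the other members had 1. The first 30 bases of 1 Gabbr2 probe and both Kcnj3 probes are shown because the results turn on how the probes of these genes compare. They are copied 5′ to 3′ from the array files, with no base marked.
Gabbr2 probe at base 3678 of the transcript: catccatcagaagagagatgtttgttactc
Kcnj3 probe at base 647: tatctccatgagggacggaaaactcactct
Kcnj3 probe at base 1604: tttggctgataagataatcctccctatgaa
By the array annotation on mouse build mm9, this Gabbr2 probe lies on the minus strand at chr4:46677030-46677089, with a stop codon in each of its 3 reading frames. The Kcnj3 probes lie on the plus strand at chr2:55290214-55290273 and chr2:55447862-55447921. GC content was 35.0% for this Gabbr2 probe and 55.0% and 41.7% for the Kcnj3 probes. Whether a probe lies in coding sequence or in a UTR is not given by the array annotation. With a stop codon in each frame, this Gabbr2 probe cannot lie wholly within coding sequence.

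No member probe passed limma's adjusted p of 0.05 over the 29318 detected probes. The differences farthest below 0 were those of Gabbr2, the G protein-coupling subunit, Kctd16, one of the auxiliary subunits, and Kcnj3, the GIRK1 subunit. Gabbr1, Kctd12, Kctd8, Kcnj6 and Kcnj9 overlapped between the groups. Of the 13 detected probes 10 had a difference below 0 and 3 above it, where 58.3% of all detected probes lay below 0. The median difference was -0.20 on the log2 scale for the member probes, against -0.05 for all detected probes, where the middle 50% of differences ran from -0.20 to 0.13.

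In all, 0 of 13 member probes passed the adjusted threshold, where 0.00682% of all detected probes did, which is 2 probes, both higher in knock-in. At an unadjusted p under 0.05, 3 member probes were lower and 0 were higher in knock-in, beside 6.13% lower and 4.29% higher among all detected probes (10.4% in all). The same 3 probes, Gabbr2 at base 3334, Kctd16 at base 1198 and Kcnj3 at base 647, had all 3 knock-in arrays below all 3 wild-type arrays. Over all detected probes 12% lay wholly lower and 7.93% wholly higher (19.9% in all). The members share pathways and samples and are not replicates of each other, so these counts describe the genes and test nothing about them as a group.

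**Figure D1:**
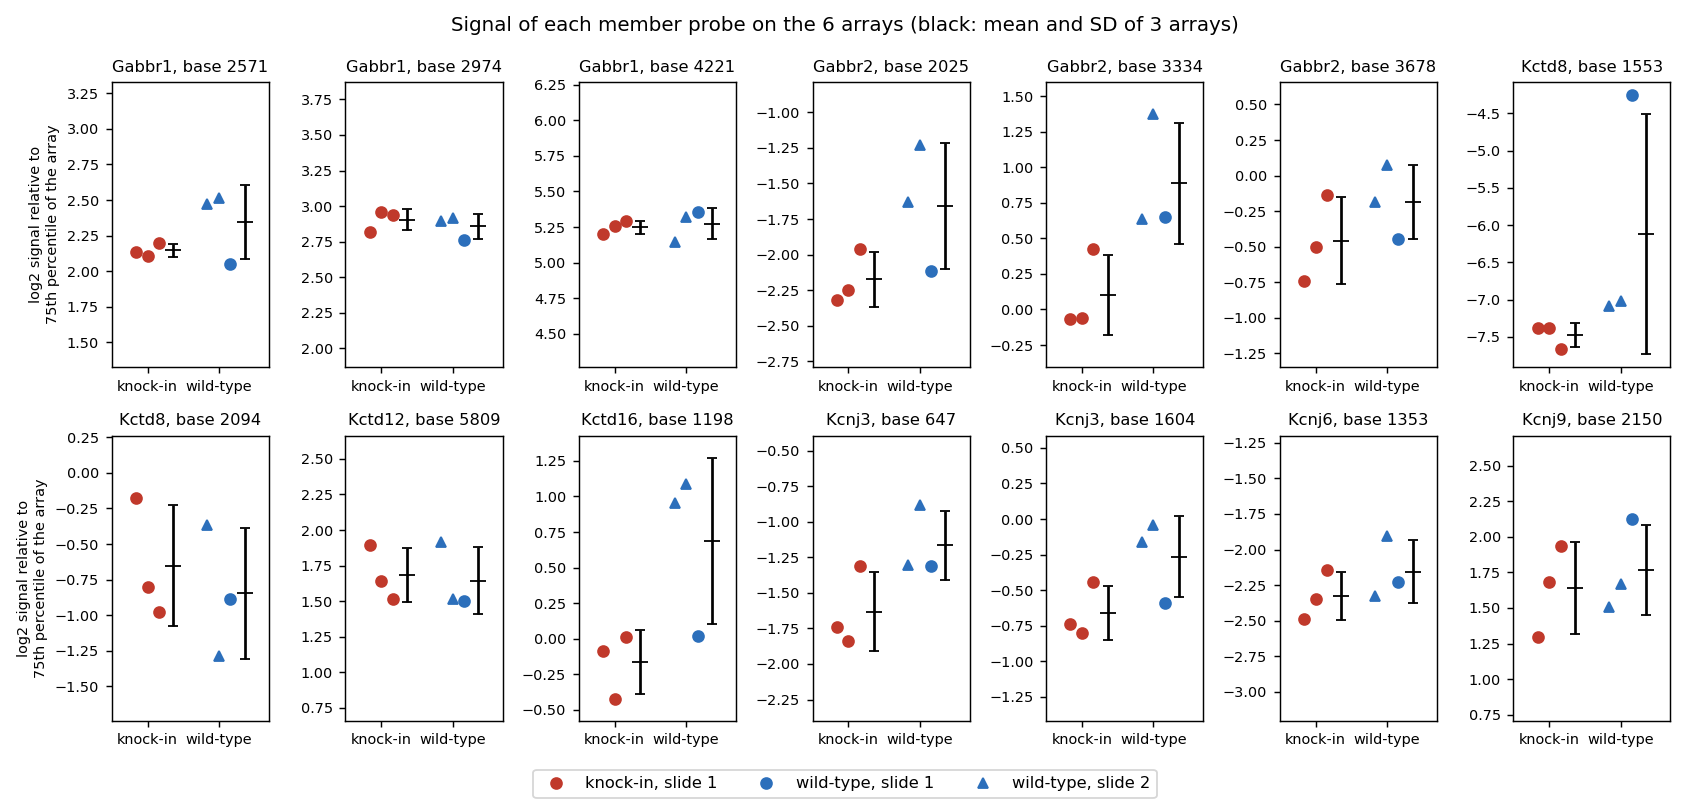
Scaled signal (vertical axis, log2 relative to the 75th percentile of the array) of each of the 14 member probes on the 6 arrays, knock-in left and wild-type right, with circles for slide 1, triangles for slide 2, and the mean and SD of 3 arrays in black, each panel with its own axis. In Gabbr2 at base 3334, Kctd16 and Kcnj3 at base 647 the knock-in arrays lie below the wild-type ones, and in Kctd16 wild-type replicate 3 at 0.019 sits beside the highest knock-in array at 0.015.

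Gabbr2 read lowest in knock-in by its brightest probe. That probe, at base 3334, had processed signals of 844, 872 and 1220 in knock-in replicates 1 to 3, against 898, 1504 and 1289 in wild-type replicates 1 to 3. In scaled values this was 0.10 ± 0.28 in knock-in and 0.89 ± 0.42 in wild-type (SD, n = 3 each). The raw signal of wild-type replicate 1 lay among those of the knock-in arrays, whereas the scaled values of the groups did not overlap. The difference was -0.79 (SE 0.25, 95% interval -1.38 to -0.19), or 0.580 of wild-type, with limma's unadjusted p = 0.0176 and adjusted p = 0.447. Among all detected probes 3.07% differed by more in either direction.

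The other Gabbr2 probes had smaller differences of the same sign. At base 2025 the signals were 177, 191 and 234 in knock-in, against 187, 248 and 190 in wild-type, a scaled difference of -0.52 (SE 0.24, interval -1.09 to 0.05). Here knock-in replicate 3 lay above wild-type replicate 3. At base 3678 they were 528, 643 and 830 in knock-in, against 507, 611 and 605 in wild-type, with a scaled difference of -0.27 (SE 0.20, interval -0.76 to 0.22). Wild-type replicate 2 was the highest array in all 3 Gabbr2 probes, with scaled values of -1.23, 1.37 and 0.07. Without it the difference at base 3334 was -0.54, at base 2025 -0.30 and at base 3678 -0.14.

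The differences of the 3 Gabbr2 probes were unequal, but no test separated them. On each array, the value at base 3678 minus that at base 3334 was -0.68, -0.44 and -0.56 in knock-in, against -0.82, -1.30 and -1.09 in wild-type. The groups did not overlap, and their means differed by 0.51 (exact two-sided permutation p = 0.1, the smallest that 3 against 3 arrays allow, and 0.35 adjusted over 7 probe pairs). Within slide 1 that difference was 0.53. The probe at base 3334 minus that at base 2025 differed by -0.27 (exact p = 0.2), and by -0.49 within slide 1. The probe at base 3678 minus that at base 2025 differed by 0.25 (exact p = 0.2), and by 0.046 within slide 1.

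Gabbr1, the GABA-binding subunit, was nearly the same in both groups by 2 of its 3 probes. The brightest, at base 4221 on chromosome 17, read 32440, 34750 and 35630 in knock-in, against 20500, 23210 and 33690 in wild-type. After scaling this was 5.25 ± 0.05 in knock-in and 5.28 ± 0.11 in wild-type (SD, n = 3 each), a difference of -0.03 (SE 0.11, interval -0.28 to 0.23, adjusted p = 0.926). The probe at base 2974 differed by 0.05 (SE 0.11, interval -0.21 to 0.30). That at base 2571 read 3874, 3924 and 4175 in knock-in, against 3216, 3314 and 3406 in wild-type, and differed by -0.20 (SE 0.15, interval -0.56 to 0.16). Its scaled values were 2.13, 2.11 and 2.20 in knock-in, against 2.48, 2.51 and 2.05 in wild-type, so wild-type replicate 3 lay below the knock-in arrays and replicates 1 and 2 above them. In none of the 3 Gabbr1 probe pairs did the within-array difference separate the groups (exact p = 0.2 to 0.6). The value at base 4221 minus that at base 2571 differed by 0.17 between the groups over all 6 arrays, and by -0.20 within slide 1. Whether the probes separate the receptor isoforms GABA-B1a and GABA-B1b is not given by the array annotation.

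**Figure D2:**
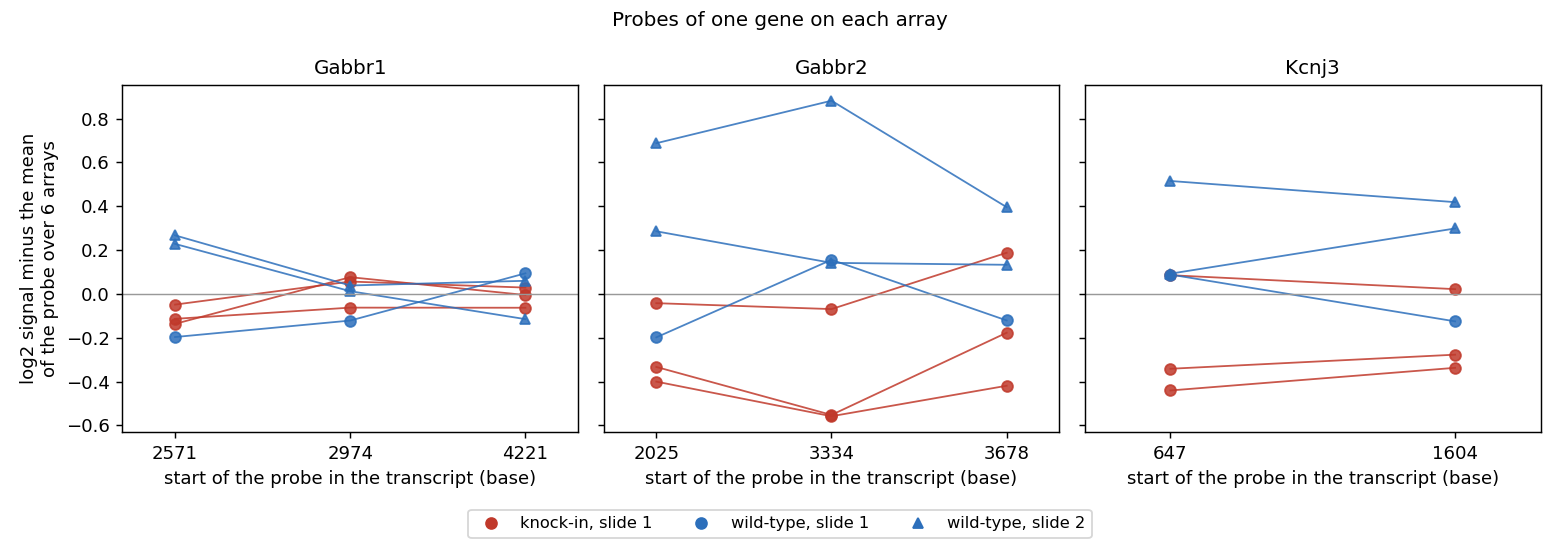
Scaled log2 signal of each probe minus its mean over the 6 arrays (vertical axis), against the start of the probe in the transcript, for Gabbr1, Gabbr2 and Kcnj3, with 1 line per array, knock-in in red and wild-type in blue, circles for slide 1 and triangles for slide 2. For Gabbr2 wild-type replicate 2 lies on top at each probe, the knock-in arrays lie lowest at base 3334, and knock-in and wild-type lines cross at bases 2025 and 3678.

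Among the auxiliary subunits, Kctd16 had the difference farthest from 0 of any member, and the one that moved most with slide as a block. Its probe, at base 1198 on chromosome 18, read 833, 679 and 919 in knock-in, against 1119, 1235 and 834 in wild-type. The scaled values were -0.085, -0.42 and 0.015 in knock-in, against 0.95, 1.09 and 0.019 in wild-type. Wild-type replicate 3 thus lay next to knock-in replicate 3, and the groups were apart by the gap between these 2 arrays only. The difference was -0.85 (SE 0.30, interval -1.57 to -0.13), or 0.555 of wild-type, with limma's unadjusted p = 0.0271 and adjusted p = 0.458. Against wild-type replicate 3 alone, the array of the same slide, it was -0.18 (SE 0.22).

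A further probe, named 2900055J20Rik in the array files, is listed by RefSeq under a synonym of Kctd16 and was not chosen by the symbol rule. It lies at base 469 of another transcript, numbered as non-coding, at chr18:40417085-40417144, where the Kctd16 probe lies at chr18:40690672-40690731. Its signals were 1653, 2013 and 2118 in knock-in, against 1155, 1605 and 2474 in wild-type. Its scaled difference was -0.26 (SE 0.19, interval -0.71 to 0.18), with overlapping groups, and -0.50 within slide 1. Wild-type replicate 3 was the highest wild-type array by this probe and the lowest by the Kctd16 probe. Whether the 2 probes read the same RNA is not given by the array annotation.

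Kctd12 and Kctd8 did not separate the groups. Kctd12, which speeds the fading of GABA-B currents, read 3283, 2831 and 2609 in knock-in, against 2180, 1658 and 2329 in wild-type. Scaled, this was 1.68 ± 0.19 in knock-in and 1.64 ± 0.23 in wild-type (SD, n = 3 each), a difference of 0.04 (SE 0.17, interval -0.36 to 0.44, adjusted p = 0.924). Kctd8 at base 2094 read 783, 521 and 461 in knock-in, against 449, 238 and 445 in wild-type, and differed by 0.19 (SE 0.30, interval -0.53 to 0.91). In both genes the highest scaled values were those of knock-in replicate 1 and wild-type replicate 1, at 1.89 and 1.91 for Kctd12 and -0.17 and -0.36 for Kctd8.

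The second Kctd8 probe, at base 1553 of an Ensembl transcript, was the member probe that was not detected. It cleared the background on 0 of 3 knock-in arrays and 1 of 3 wild-type arrays. Its signals were 5.33, 5.46 and 4.52 in knock-in, against 4.27, 4.49 and 43.0 in wild-type, so wild-type replicate 3 stood apart from the other 5 arrays. The wild-type mean lay below the lowest signal measurable in knock-in, so no fold is given.

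Of the GIRK channel subunits, Kcnj3 had differences below 0 at both of its probes. At base 647 it read 264, 254 and 366 in knock-in, against 234, 314 and 332 in wild-type, with scaled values of -1.74, -1.84 and -1.31 in knock-in, against -1.31, -0.88 and -1.31 in wild-type. The highest knock-in array, at -1.314, and the lowest wild-type array, at -1.311, all but touched. The difference was -0.46 (SE 0.19, interval -0.93 to -0.002), or 0.725 of wild-type, with unadjusted p = 0.0493 and adjusted p = 0.479 by limma. At base 1604 the signals were 529, 522 and 671 in knock-in, against 516, 563 and 547 in wild-type, and the scaled difference was -0.39 (SE 0.18, interval -0.83 to 0.04), with overlap. The value at base 1604 minus that at base 647 differed by 0.07 between the groups over all 6 arrays (exact p = 0.6), and by 0.25 within slide 1, where the probes were at -0.072 and -0.32.

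Kcnj6 was measured by 1 probe spotted 10 times on each array, which shows the spread between spots. The log2 SD of the spots within an array was taken over all 10, marked outliers included. It was 0.17, 0.21 and 0.31 for knock-in arrays, against 0.12, 0.089 and 0.27 for wild-type arrays. On each array 0 to 2 of the spots were marked as outliers, and these were left out of the values that follow. Its mean signals were 158, 179 and 205 in knock-in, against 115, 155 and 175 in wild-type. Scaled, they averaged -2.33 ± 0.17 in knock-in and -2.15 ± 0.22 in wild-type (SD, n = 3 each), a difference of -0.17 (SE 0.16, interval -0.55 to 0.20, adjusted p = 0.651). All other member probes have 1 spot per array, and their spot error is part of the spread between arrays.

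Kcnj9 varied widely among arrays of each group. Its signals were 2165, 2923 and 3477 in knock-in, against 1646, 1846 and 3586 in wild-type. The scaled values were 1.29, 1.69 and 1.93 in knock-in, against 1.51, 1.67 and 2.12 in wild-type, a difference of -0.13 (SE 0.23, interval -0.67 to 0.41, adjusted p = 0.813). Within slide 1 it was -0.49 (SE 0.27), and without knock-in replicate 1 it was 0.042. Kcnj6 and Kcnj9 both had their lowest array in knock-in replicate 1.

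**Figure D3:**
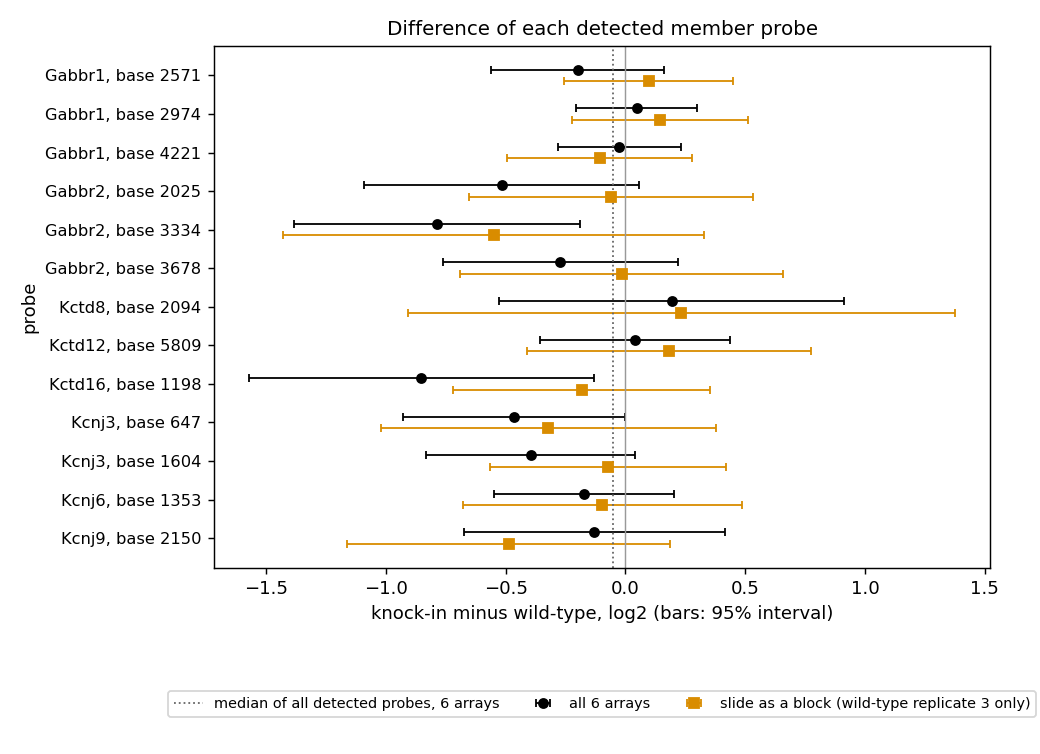
Log2 difference, knock-in minus wild-type (horizontal axis), for each of the 13 detected member probes, with 95% intervals, from all 6 arrays (black circles) and with slide as a block, which leaves wild-type replicate 3 alone as the comparison (orange squares). The dotted line is the median of all detected probes at -0.05. With slide as a block every interval includes 0, and Kctd16 is at -0.18 in place of -0.85.

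The Gabbr2, Kctd16, Kcnj3 and Kcnj6 differences were closer to 0 against wild-type replicate 3 alone, and those of Kcnj9, Kctd8 and Kctd12 farther from it. In 11 of 13 member probes (84.6%) the mean of wild-type replicates 1 and 2 lay above wild-type replicate 3, by a median of 0.21, whereas 53% of all detected probes did so, with a median of 0.021. With slide as a block, the median difference of the member probes was -0.072, against -0.028 for all detected probes, and 9 of 13 member probes were below 0, where 54.8% of all detected probes were. Then 0 member probes passed the adjusted threshold, where 0.0341% of detected probes did, and 0 had an unadjusted p under 0.05. Gabbr2 at base 3334 was -0.55 (SE 0.35), at base 2025 -0.061 and at base 3678 -0.015, while Kcnj3 was -0.32 (SE 0.28) at base 647 and -0.072 at base 1604. Since slide 2 holds wild-type arrays only, a difference between slides and one between wild-type samples cannot be told apart.

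**Figure D4:**
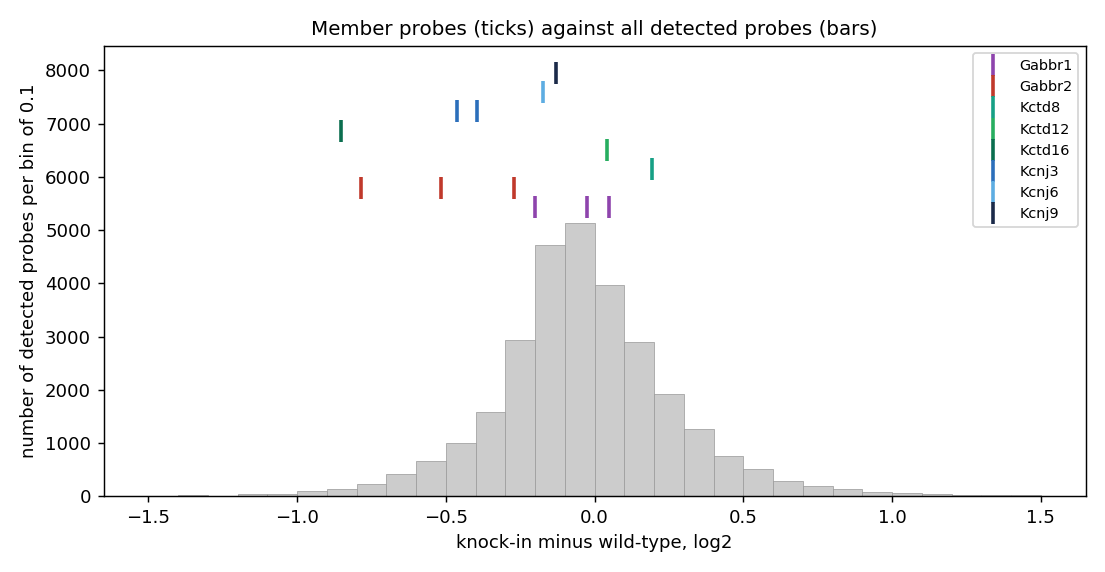
Number of detected probes (vertical axis) in bins of 0.1 of the difference knock-in minus wild-type (horizontal axis, log2), with the 13 member probes as ticks above, coloured by gene in order of the list. The bars are centred near -0.05, the 3 Gabbr2 ticks lie between -0.79 and -0.27, Kctd16 lies at -0.85, and the Gabbr1 ticks lie between -0.20 and 0.05. The 119 probes that differed by 1.5 or more are not drawn.

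Markers of brain regions also varied among the arrays. The 7 markers of cortical pyramidal neurons, among them Slc17a7 and Tbr1, averaged -0.43, -0.033 and 0.16 in knock-in replicates 1 to 3 relative to their mean over all arrays, against -0.14, 0.20 and 0.25 in wild-type. Of the 7, 5 were below 0 in knock-in minus wild-type (range -0.41 to 0.08), where 59.1% of all genes were. None separated the groups, and all were below 0 within slide 1, where 54.8% of all detected probes were. Knock-in replicate 3 was the highest of its group here, as in Gabbr2, Kctd16, Kcnj3, Kcnj6, Kcnj9 and Gabbr1 at bases 2571 and 4221. In Kctd8, Kctd12 and Gabbr1 at base 2974 it was not. Wild-type replicate 2 was the highest array in Gabbr2, Kctd16, Kcnj3, Kcnj6 and Gabbr1 at base 2571, but in no other member probe. For the cortical list the highest array was wild-type replicate 3, and for the neuronal list that follows wild-type replicate 2. Neuronal and synaptic markers averaged -0.14, -0.053 and 0.030 in knock-in, against -0.13, 0.21 and 0.076 in wild-type, with 6 of 8 below 0 (range -0.32 to 0.05) and 8 of 8 below 0 within slide 1. Of these 8, 2 lay wholly lower in knock-in, beside 12.5% of all genes. They were Rbfox3 at -0.32 and Stmn2 at -0.17, named here after their values were seen, while Tubb3 and Syp were at 0.05. The part of the cortical and neuronal markers in the differences of Gabbr2, Kctd16 and Kcnj3 was not tested.

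The 11 detected markers of striatal medium spiny neurons, such as Drd1, Adora2a and Penk, averaged 2.06, 0.59 and -0.97 in knock-in, against 1.42, -1.58 and -1.52 in wild-type. Knock-in replicate 1 and wild-type replicate 1, which had the highest Kctd8 and Kctd12 values, were thus also the highest in these markers. The same arrays were the highest in the 5 detected hippocampus markers, at 0.12 and 0.18, and in the choroid plexus markers below. All 11 striatal markers were above 0 in knock-in minus wild-type (range 0.42 to 2.39), with 0 separating the groups and 9 well above background on all 6 arrays. Over all genes 59.1% were below 0. The choroid plexus markers averaged 0.86, 0.82 and -0.70 in knock-in, against 1.38, -1.14 and -1.22 in wild-type. Of these 5, 4 were above 0 (range -0.62 to 1.58), and only 3 were well above background on all 6 arrays. The scaled values of Ttr and Otx2 fell as low as -6.40 and -7.03. Markers of oligodendrocytes averaged 0.20, 0.39 and -0.051 in knock-in, against 0.21, -0.54 and -0.20 in wild-type, and 6 of 6 were above 0 (range 0.24 to 0.56). Their part in the values of Kctd8 and Kctd12 was not tested.

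The rest of the pathway was followed in 6 gene lists, each gene by its brightest detected probe. No gene of these lists passed limma's adjusted p of 0.05, where 0.00954% of 20975 genes did. At an unadjusted p under 0.05 there were 4 higher and 3 lower among 70 genes, beside 4.15% and 5.86% of all genes. Of the G proteins, 10 of 13 were below 0, where 59.1% of all genes were, with a median of -0.084, against -0.052 over all genes. Gnao1, which encodes the Go alpha subunit through which GABA-B receptors signal in neurons, differed by -0.37 (SE 0.14, adjusted p = 0.466) with all knock-in arrays below wild-type. Gnai3, an inhibitory alpha subunit, differed by 0.44 (SE 0.14) and the gamma subunit Gng4 by 0.42 (SE 0.15), both wholly above wild-type. In all 2 of these 13 genes lay wholly higher and 3 wholly lower, beside 7.87% and 12.5% of all genes (20.3% in all).

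Receptor partners and trafficking proteins had a median of -0.065, with 7 of 12 below 0, where 59.1% of all genes were. In this list 1 gene lay wholly higher and 1 wholly lower, beside 7.87% and 12.5% of all genes. Ddit3, the stress-induced transcription factor CHOP, which can bind GABBR2, differed by 0.38 (SE 0.13, adjusted p = 0.458) and lay wholly above wild-type, the 14-3-3 protein gene Ywhah by -0.19 (SE 0.10), wholly below, and the sorting nexin Snx27 by -0.23 (SE 0.15). The Ywhah difference was -0.012 with quantile normalization and -0.008 in the authors' value table. RGS proteins, which end G protein signals, had a median of 0.026 and 0 of 8 separated the groups. Of these, Rgs4 differed by -0.17 (SE 0.12), Rgs2 by 0.34 (SE 0.27) and Rgs7, part of the complex that times GIRK responses, by 0.16 (SE 0.16). Among the other effectors, with a median of 0.10 over 13 genes, Cacna1b, the N-type calcium channel that the receptor inhibits at terminals, differed by -0.53 (SE 0.17, adjusted p = 0.453), wholly below wild-type. Its signal was low, with scaled values of -3.919, -4.051 and -3.778 in knock-in, against -3.218, -3.232 and -3.715 in wild-type. In this list 0 genes lay wholly higher and 1 wholly lower, beside 7.87% and 12.5% of all genes. Adcy8, an adenylyl cyclase, differed by 0.28 (SE 0.18) and Prkaa1, an AMP-activated kinase subunit, by -0.28 (SE 0.20).

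The relatives of the members outside the receptor complex lay on either side of 0. The other inward rectifier channels had a median of 0.046 over 8 genes, and 0 separated the groups. Kcnj14 differed by 0.46 (SE 0.20), the glial and kidney channel Kcnj16 by -0.24 (SE 0.14) and Kcnj12 by 0.09 (SE 0.12). The other KCTD family genes, of which 16 of 18 were detected, had a median of -0.059. Of the 16, 11 were below 0, where 59.1% of all genes were. Kctd9 differed by -0.31 (SE 0.12), Kctd5, which acts on G protein beta-gamma turnover, by 0.60 (SE 0.24) and Kctd14 by -0.31 (SE 0.14), each without overlap. In this list 2 genes lay wholly higher and 3 wholly lower, beside 7.87% and 12.5% of all genes. Kctd14 was at -0.066 with quantile normalization and at -0.092 in the authors' value table. With slide as a block the lists' medians lay between -0.071 and 0.089, Gnao1 was -0.15, Cacna1b -0.20, Ddit3 0.18 and Kctd5 0.19, while Gnai3 was 0.53, Gng4 0.45 and Kctd9 -0.31. Kctd14 was then -0.059, Kcnj14 0.091, Snx27 -0.004 and Prkaa1 -0.042.

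**Figure D5:**
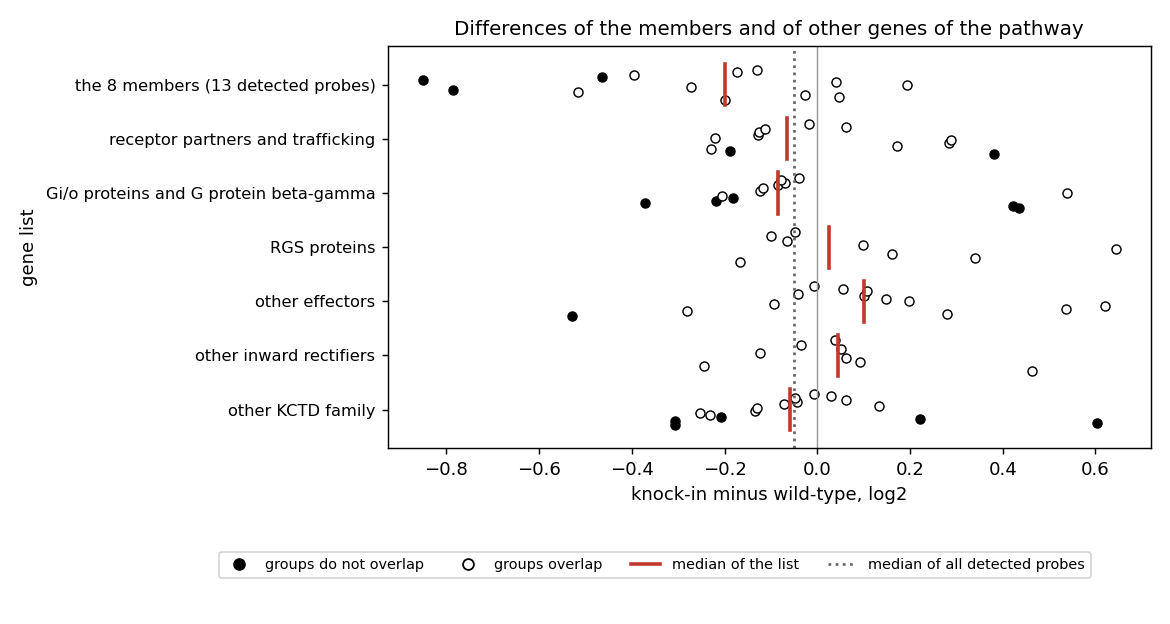
Difference knock-in minus wild-type (horizontal axis, log2) for the 13 detected member probes and for each gene of 6 lists of the same pathway or families, with filled points where the groups do not overlap, a red bar for the median of each list, and a dotted line for the median of all detected probes. The member median lies at -0.20, and the list medians lie between -0.084 and 0.10.

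The genes whose scaled values over the 6 arrays ran closest to those of the brightest Gabbr2 probe, each taken around its own mean, were Slc8a1, a sodium-calcium exchanger, Rad18, a ubiquitin ligase of DNA repair, and Lrrc8b, a subunit of volume-regulated anion channels. Their root mean square differences from Gabbr2 were 0.095, 0.095 and 0.096 on the log2 scale, where Gabbr2 itself had an SD of 0.54 over the arrays. Their own differences between the groups were -0.81, -0.61 and -0.66, which follows from choosing them by likeness to Gabbr2 on these arrays. Closest to Gabbr1 at base 4221, which had an SD of 0.078, were Zfp648, Atf7ip and Zfp212, at 0.015 to 0.017. Genes with placeholder names, such as clone or locus numbers, were left out of this search. These are the nearest among the rest of the 20975 genes, over 6 arrays that share 2 slides.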

How the data were processed

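Total RNA of 6 samples was labelled with Cy3 and hybridised to 1 array each, per the labels' protocols. The authors deposited scanner files read with Agilent Feature Extraction 10.7.3.1, per the file headers, which give each spot's processed intensity, background-subtracted and detrended within the array but not normalized between arrays. They also deposited a table of log2 values with nearly equal medians in all columns (6.55 to 6.56), in the order of the raw median intensity of each array (Spearman correlation 1). The way its columns were equalised is not stated in the labels or headers, and it served as an alternative. Slides were told apart by the sample titles.

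Control spots and spots marked as outliers were left out, unless all spots of a probe were marked. Log2 processed intensities were scaled by the 75th percentile of each array, and spots of a probe were averaged. The fit used R 4.3.3 and limma 3.58.1, with lmFit and eBayes on detected probes, two-sided tests and Benjamini-Hochberg adjustment over all of them, and was tested on simulated data. Differences are knock-in minus wild-type, and arrays, not probes, are the replicates, whose number limits the precision. The members, lists and tests were chosen with earlier results of these data known. Genes named are the members, the 3 of smallest unadjusted p in each list, and the 3 nearest to Gabbr1 and to Gabbr2, placeholder names aside. Probes were named by RefSeq accession or symbol (GRCm38.p6, names only), members by the array's own symbol. The alternatives were other background corrections, scalings, filters and moderation, 1 probe per gene, slide and replicate blocks, and leaving out each array. Some probe sequences are not reported here.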

Additional observations from a re-analysis of the deposited data

How the results depend on the processing

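No member probe passed the adjusted threshold under any of the 18 alternatives, and the median difference of the member probes stayed below 0, between -0.35 and -0.072. Gabbr2, Kctd16, Kcnj3 and Kcnj6 probes stayed below 0 wherever they were tested. Gabbr2 at base 3334 ranged from -0.95 to -0.54 (adjusted p = 0.229 to 0.984), Kctd16 from -1.18 to -0.18 (0.184 to 0.984) and Kcnj3 at base 647 from -0.62 to -0.32 (0.234 to 0.984). With 1 probe a gene, the brighter probe named 2900055J20Rik was kept for Kctd16. The Kctd16 probe followed here had no value in that setting, and the member median of -0.130 was taken without Kctd16. Signs turned as follows, in limma differences near 0. Quantile normalization and the authors' value table gave 0.073 and 0.037 for Gabbr1 at base 4221. Slide as a fixed block and slide 1 alone gave 0.097 for Gabbr1 at base 2571 and -0.034 for Rgs7. Without knock-in replicate 1, Kctd8 at base 2094 was -0.046, Kctd12 -0.064 and Kcnj9 0.042. Without wild-type replicate 2, Kctd8 was -0.027 and Kctd12 -0.023. Without wild-type replicate 3, Gabbr1 was -0.002 at base 2974 and 0.015 at base 4221, Kctd12 was -0.030 and Kcnj9 0.049. Over leaving out each array, Gabbr1 ranged from -0.002 to 0.090 at base 2974 and from -0.090 to 0.015 at base 4221, Kctd8 from -0.046 to 0.433, Kctd12 from -0.064 to 0.176 and Kcnj9 from -0.278 to 0.049. The cause was not tested.

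Over all probes, 2 passed the threshold in the comparison reported. The number was 1 with normexp, 0 without a filter, 0 when each of the 6 arrays had to be well above background, 0 with the authors' value table, 10 with slide as a fixed block (2 higher, 8 lower), 4 with slide 1 alone and between 0 and 5 on leaving out 1 array. With the replicate block, that is pairing arrays by number, it was 0 (3047 probes at an unadjusted p under 0.05). Same-numbered arrays correlated in their deviations from the group means by 0.36, -0.039 and 0.22, and the other pairs by -0.35 to 0.13. Knock-in replicates 1 and 3 correlated best with their own number, and replicate 2 with wild-type replicate 3 (0.098). Whether same-numbered samples share a preparation was not tested. Leaving out the filter moved the median of all probes to -0.165. The consensus correlation within slides was 0.016. With 3 arrays a group and 1 wild-type array on the shared slide, the intervals of single probes leave room for differences of either sign in most members.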
